A study of Homo sapiens with 45 samples.

Results

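Messenger RNA of 10 genes of the NuRD complex was examined in 4 human T-cell acute lymphoblastic leukaemia (T-ALL) lines that were given an inhibitor of BAF chromatin remodellers or guides against BAF subunit genes. The study names cBAF, a BAF form that contains ARID1A or ARID1B, as its target, while SMARCA4 and SMARCA2 are ATPases of every BAF form. The genes were taken by name, as CHD4, CHD3, HDAC1, HDAC2, MTA1, MTA2, MTA3, MBD2, MBD3 and GATAD2A, and are 10 of the 38557 genes in the deposited tables. The set was selected on the TPM difference of CHD4 between BRM014 and DMSO at 6 h, which was already known, so every 6 h difference between BRM014 and DMSO, and every CHD4 level in those libraries, is a description and carries no test. RNA-seq gave 45 libraries in 15 groups of 3. TALL-1, KOPT-K1 and CCRF-CEM cells were each held for 6 h in 1 uM BRM014, a small molecule that blocks the BAF ATPases SMARCA4 and SMARCA2, or in 0.01% DMSO. Jurkat cells received the same inhibitor or DMSO for 6 h or 8 d. In a further 5 Jurkat groups, cells carried CRISPR guides against ARID1A (gARID1A), ARID1A with ARID1B (gARID1A_1B), SMARCA4 (gSMARCA4), SMARCA4 with SMARCA2 (gSMARCA4_A2) or, as the control, the AAVS1 site (gAAVS1), and RNA was taken on day 10 after 4 days of puromycin selection. Whether the guide groups are pools or clones is not given in the sources used here.

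NuRD joins nucleosome remodelling by a CHD-family ATPase, CHD4 or its paralog CHD3, to removal of acetyl groups from histones by HDAC1 and HDAC2. MTA1, MTA2 and MTA3 are alternative scaffold subunits that hold the deacetylases, MBD2 and MBD3 are mutually exclusive methyl-CpG-binding-domain subunits, and GATAD2A or its paralog GATAD2B links the MBD protein to the CHD ATPase. In the T lineage, CHD4 is known for its part in thymocyte development and for working with DNA-binding partners such as IKZF1 and BCL11B. HDAC1 and HDAC2 are shared with the SIN3, CoREST and MiDAC complexes. In the RefSeq annotation of GRCh38.p14, CHD4 lies on the minus strand at chr12:6570082-6607379 and CHD3 on the plus strand at chr17:7884796-7912755. GATAD2A lies on the plus strand at chr19:19385843-19508932 and MTA2 on the minus strand at chr11:62593214-62601865.

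Upstream sequences are shown for CHD4 and GATAD2A, the members whose BRM014 libraries all lay below their DMSO libraries in every line at 6 h, and for MTA2, which passed as higher in all 4 guide groups, in gARID1A with a call that several alternatives ended. Each is the 250 bases before an annotated transcript start in a RefSeq-derived table on GRCh38.p14, written 5′ to 3′ on the gene's strand, and capitals mark matches to the ETS-family core CCGGAA and to the GC box GGGCGG on either strand. The CHD4 stretch lies at chr12:6606452-6606701 on the minus strand, the GATAD2A stretch at chr19:19385593-19385842 on the plus strand and the MTA2 stretch at chr11:62601866-62602115 on the minus strand.
CHD4: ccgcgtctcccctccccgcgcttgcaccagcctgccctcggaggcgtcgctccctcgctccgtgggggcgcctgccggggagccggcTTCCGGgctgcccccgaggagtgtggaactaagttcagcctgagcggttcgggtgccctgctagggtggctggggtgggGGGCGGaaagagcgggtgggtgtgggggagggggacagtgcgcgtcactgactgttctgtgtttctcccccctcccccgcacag
GATAD2A: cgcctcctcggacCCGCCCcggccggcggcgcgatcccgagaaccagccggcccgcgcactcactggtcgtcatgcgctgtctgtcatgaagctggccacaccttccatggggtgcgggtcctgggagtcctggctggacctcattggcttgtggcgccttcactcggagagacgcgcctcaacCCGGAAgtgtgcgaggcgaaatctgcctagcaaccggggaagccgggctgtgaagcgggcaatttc
MTA2: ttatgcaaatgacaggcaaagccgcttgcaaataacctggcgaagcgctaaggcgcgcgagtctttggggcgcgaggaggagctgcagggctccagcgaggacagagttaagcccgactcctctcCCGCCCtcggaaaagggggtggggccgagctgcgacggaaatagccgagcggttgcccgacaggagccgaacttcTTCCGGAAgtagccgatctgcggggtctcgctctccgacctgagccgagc
For CHD4 the table's start is not the outermost one. Of its 22 coding transcripts in GENCODE 29, 11 start more than 100 bases further upstream, so this stretch lies within the gene for them. The ETS core was present in 5 of the 10 members' stretches (CHD4, GATAD2A, MTA2, HDAC1 and MBD2) and in 14.8% of 27305 genes' stretches of the same length. The GC box was present in 8 of the 10 members' stretches and in 42.3% of all. TGTGGT, a RUNX core, was found only in MBD2 among the 10, against 10.9% of all stretches. The GATA-factor core GATAA was found only in CHD3, against 21.0%, and the TATA box letters TATAAA were in none of the 10, against 11.1%. The letters CCAAT were in 3 of the 10 (HDAC1, MBD3 and GATAD2A), against 33.0%. The CHD4 stretch and the CHD3 stretch, at chr17:7888539-7888788, both lie inside their genes as annotated above. Their matches are included in the member counts. The CHD4, GATAD2A and MTA2 stretches held 21, 25 and 25 CG dinucleotides, and the median over all genes was 11. The shares over all genes were not matched to the members for CG content.

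The 18 libraries of TALL-1, KOPT-K1 and CCRF-CEM held 19.7 to 27.0 M recovered reads each and the 27 of Jurkat 29.7 to 47.9 M (M, mega), with at least 742 reads on CHD4 in each, so counting error was small for the members. Levels are in TPM, the deposited unit, which is per length over the exon length given in the tables. RNA of Jurkat was extracted with another kit and put through a non-directional library protocol, and that of the other lines through a directional one, so levels are not compared by test between Jurkat and the rest. All 9 T-lineage markers, CD3D and LCK among them, had a median of at least 1 TPM in every line, while the 5 myeloid markers summed to less than 1 TPM in each library. The 5 erythroid and megakaryocyte markers summed to 1.37 to 6.23 TPM in Jurkat, where HBA1 had a median of at least 1 TPM. The 5 epithelial and fibroblast markers summed to 2.22 to 9.575 TPM in Jurkat and 6.27 to 9.85 TPM in CCRF-CEM. KRT8, KRT18 and COL1A1 in Jurkat and EPCAM and KRT8 in CCRF-CEM had a median of at least 1 TPM. Both lists summed to less than 1 TPM in each TALL-1 and KOPT-K1 library, as did the first in CCRF-CEM. The 5 B-lineage markers summed to 2.67 to 21.6 TPM in Jurkat, 7.46 to 26.1 TPM in TALL-1, 59.4 to 105 TPM in KOPT-K1 and 99.5 to 151 TPM in CCRF-CEM, with CD79A above a median of 1 TPM in every line and MS4A1 at a median of 0. As a check of the labels, SMARCA4 averaged 44.2 ± 1.63 TPM in gSMARCA4 and 49.9 ± 2.35 TPM in gSMARCA4_A2, against 97.5 ± 2.41 TPM in gAAVS1 (SD, n = 3). ARID1A was 83.1 ± 3.38 TPM in gARID1A, against 94.4 ± 0.70 TPM in gAAVS1. In the libraries labelled gARID1A_1B, ARID1B was lower than in gAAVS1, at 11.9 ± 0.99 TPM against 22.7 ± 0.52 TPM, and ARID1A was not, at 101 ± 5.07 TPM. In the libraries labelled gSMARCA4_A2, SMARCA2 was at 22.4 ± 0.29 TPM, against 21.8 ± 0.93 TPM in gAAVS1. The guides act on DNA, and protein was not measured, so mRNA levels of the targets check the labels only in part. CCRF-CEM replicate 3 stood apart from its group for CHD4 under both treatments, and CHD4 values for that line are given with and without it. Every library is named a biological replicate, with no statement of separate cultures, so p-values measure the spread between these libraries.

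CHD4, the main ATPase of NuRD, was lower after 6 h of BRM014 in all 4 lines, and the size differed widely between them. In TALL-1 it had 13.1, 15.9 and 15.6 TPM with BRM014, against 226, 243 and 230 TPM with DMSO. That left 6.40% ± 0.65 of the DMSO mean (SD over 3 libraries), a fitted log2 fold change of -3.88 ± 0.24 (SE) on the log2(TPM + 1) scale, and the rank of CHD4 was 4 from the lowest among 16241 genes. In KOPT-K1 it had 73.4, 60.8 and 75.5 TPM with BRM014, against 288, 264 and 260.5 TPM with DMSO, a log2 fold change of -1.94 ± 0.24 and rank 50. In CCRF-CEM it had 53.2, 47.8 and 112 TPM with BRM014, against 210.2, 219.5 and 317 TPM with DMSO, a log2 fold change of -1.88 ± 0.24 and rank 88. Replicate 3 was the highest library in both CCRF-CEM groups, and without it the log2 fold change was -2.07. The SE of 0.24 is the same for TALL-1, KOPT-K1 and CCRF-CEM, as 1 spread was fitted to all their groups. It is therefore not the spread within TALL-1 or KOPT-K1. In Jurkat it had 108.5, 90.9 and 105 TPM with BRM014, against 183, 170.2 and 183 TPM with DMSO, a log2 fold change of -0.82 ± 0.05 and rank 522 of 17936. In each line the highest BRM014 library was below the lowest DMSO library. As these are bulk libraries scaled to a fixed total, fewer cells that express CHD4 and less CHD4 RNA per cell cannot be told apart.

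**Figure D1:**
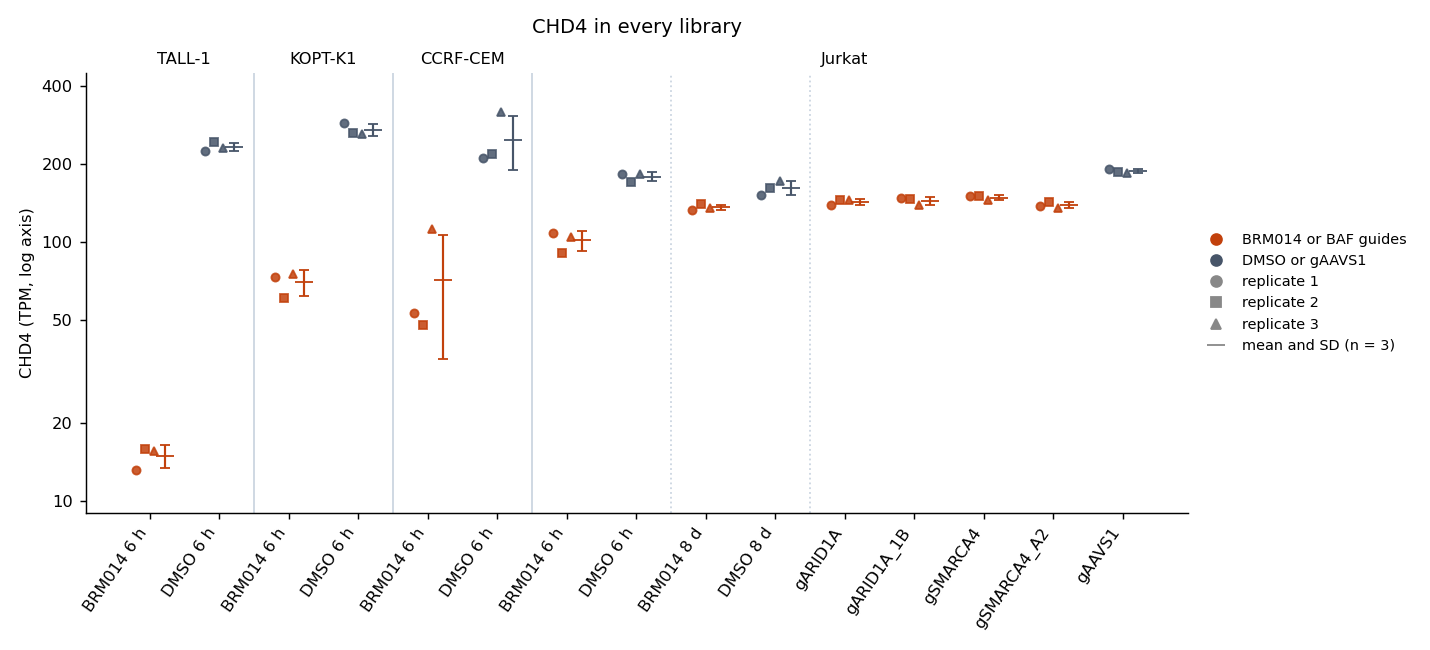
CHD4 in TPM on a log axis for all 45 libraries, 1 symbol per replicate, with the mean and SD of each group of 3 beside them. The BRM014 libraries of TALL-1 lie between 13.1 and 15.9 TPM, far under their DMSO libraries at 226 to 243 TPM, while the guide groups of Jurkat lie between 135 and 150 TPM, under gAAVS1 at 185 to 191 TPM.

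CHD3 is the other CHD ATPase that can serve NuRD in these cells, as CHD5, a mostly neuronal paralog, was at 1.32 TPM or less in every library. CHD3 was lower in TALL-1, at 139, 144 and 147 TPM with BRM014 against 182, 186 and 181 TPM with DMSO (log2 fold change -0.35 ± 0.08), and in Jurkat at 6 h (-0.16 ± 0.05). It overlapped between treatments in KOPT-K1 (-0.06 ± 0.08) and CCRF-CEM (0.001 ± 0.08). CHD4 therefore made up a smaller share of the CHD3 and CHD4 TPM after the inhibitor in every line. In TALL-1 the share was 9.39% ± 0.68 with BRM014 and 56.0% ± 0.67 with DMSO (SD, n = 3 each). In KOPT-K1 it was 59.3% ± 2.48 with BRM014 and 84.4% ± 2.05 with DMSO, in CCRF-CEM 52.0% ± 9.25 and 80.1% ± 2.39, and in Jurkat 50.8% ± 3.18 and 61.9% ± 1.18. By replicate, the CCRF-CEM share was 47.55%, 45.85% and 62.65% with BRM014 and 78.16%, 79.35% and 82.77% with DMSO, so replicate 3 was the highest of both groups. The sum of both genes was 158 ± 5.52 TPM with BRM014 in TALL-1, against 416 ± 11.4 TPM with DMSO. NAA38, a coding gene that overlaps CHD3 on the opposite strand at a median of 57.1 TPM, could add reads to CHD3 in the non-directional Jurkat libraries.

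**Figure D2:**
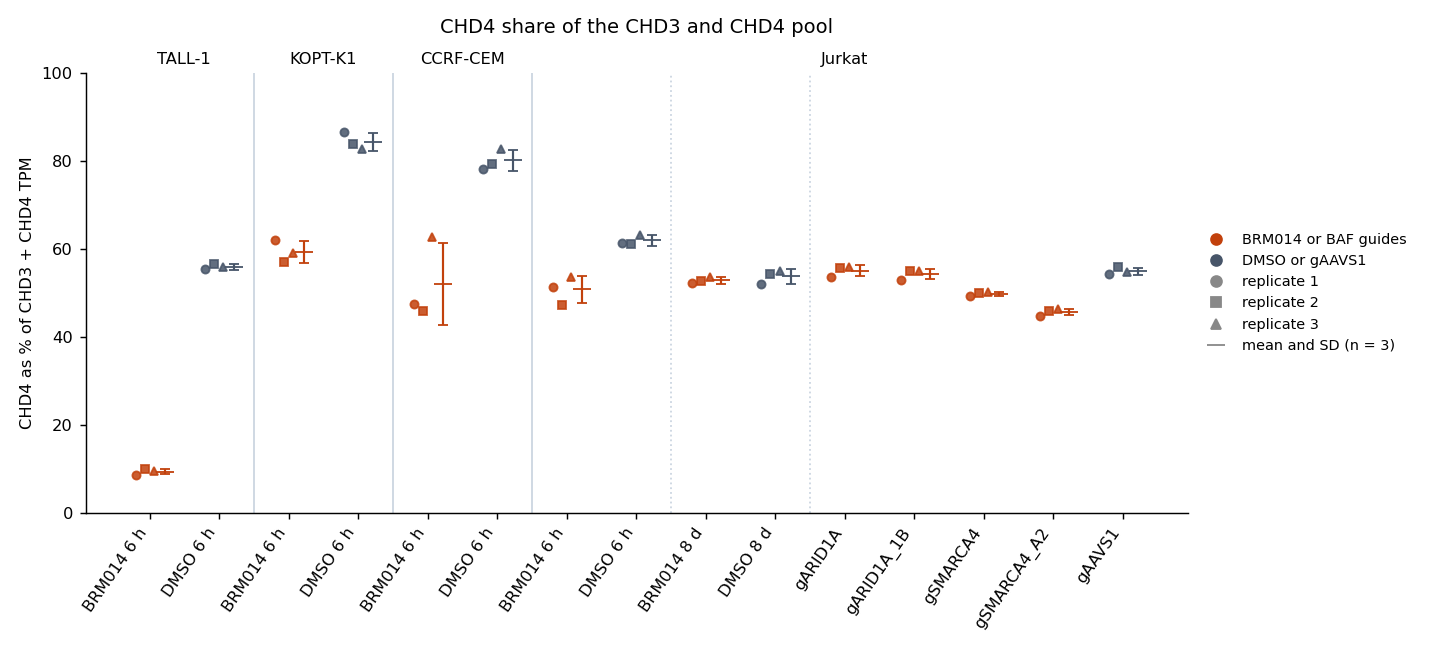
CHD4 as a percentage of the summed CHD3 and CHD4 TPM in each library, 1 symbol per replicate, with the mean and SD of each group. TALL-1 with BRM014 averages 9.39%, and in the other lines the 6 h BRM014 libraries lie at 45.85 to 62.65%, below their own DMSO libraries.

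GATAD2A, which bridges the MBD and CHD subunits, was the other member below DMSO in every library of every line at 6 h. In TALL-1 it had 31.3, 33.4 and 35.3 TPM with BRM014, against 64.7, 69.8 and 71.8 TPM with DMSO (log2 fold change -1.02 ± 0.10). In CCRF-CEM it had 33.2, 32.5 and 45.9 TPM with BRM014, against 67.7, 73.2 and 74.6 TPM with DMSO (-0.95 ± 0.10). Without CCRF-CEM replicate 3 the CCRF-CEM log2 fold change was -1.08, and the treated libraries of the 2 lines overlapped. In KOPT-K1 it had 60.0, 60.0 and 60.2 TPM with BRM014, against 93.1, 89.5 and 81.1 TPM with DMSO (-0.54 ± 0.10). In Jurkat it had 51.9, 49.3 and 53.7 TPM with BRM014, against 82.4, 81.2 and 85.3 TPM with DMSO (-0.67 ± 0.05). The order of the lines differed from that for CHD4, since Jurkat had the smallest change in CHD4 and KOPT-K1 the smallest in GATAD2A. Its paralog GATAD2B, at 16.3 TPM or less on average in these groups, was also lower in TALL-1, at 9.32 TPM with BRM014 against 16.3 TPM with DMSO (-0.75 ± 0.09), in Jurkat (-0.49 ± 0.07) and in KOPT-K1 (-0.29 ± 0.09), and its libraries overlapped in CCRF-CEM (-0.23 ± 0.09).

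The deacetylase genes parted in TALL-1. HDAC1 had 271, 275 and 281 TPM with BRM014, against 413, 389 and 439 TPM with DMSO (-0.58 ± 0.07), while HDAC2 had 64.6, 66.8 and 68.2 TPM with BRM014, against 62.8, 66.6 and 65.2 TPM with DMSO (0.04 ± 0.04). HDAC1 was also below DMSO in all libraries of Jurkat (-0.30 ± 0.05) and KOPT-K1 (-0.14 ± 0.07) and overlapped in CCRF-CEM (-0.14 ± 0.07). HDAC2 was above DMSO in KOPT-K1, at 82.7 ± 0.59 TPM with BRM014 and 74.4 ± 1.52 TPM with DMSO, and overlapped in the other 3 lines.

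Among the scaffolds, MTA2 was higher with BRM014 at 6 h in the 3 lines other than Jurkat. In KOPT-K1 it had 273, 278 and 290 TPM with BRM014, against 226, 232 and 241 TPM with DMSO (0.26 ± 0.04), and the log2 fold change was 0.17 ± 0.04 in TALL-1 and 0.19 ± 0.04 in CCRF-CEM. In Jurkat it had 183, 191.3 and 179.7 TPM with BRM014, against 194, 190.6 and 201 TPM with DMSO, and the groups overlapped. MTA3, the least abundant member, had log2 fold changes from -0.41 ± 0.11 in CCRF-CEM to -0.28 ± 0.11 in KOPT-K1, and its TALL-1 libraries overlapped. MTA1 differed in sign between lines, at -0.10 ± 0.10 in TALL-1 and 0.17 ± 0.10 in KOPT-K1, with no overlap of libraries in either. MBD2 and MBD3 overlapped between treatments in all 4 lines, with log2 fold changes between -0.02 and 0.10. All 3 BRM014 libraries lay below all 3 DMSO libraries for 5 members in TALL-1, 4 in KOPT-K1, 3 in CCRF-CEM and 5 in Jurkat. The same held for 23.2, 21.6, 21.1 and 22.5% of all genes tested in those lines. The libraries lay above for 1 member in TALL-1, 3 in KOPT-K1, 1 in CCRF-CEM and 0 in Jurkat, beside 32.9, 30.9, 29.6 and 30.7% of all genes. Since the choice of members used these contrasts, nothing is read from the counts.

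**Figure D3:**
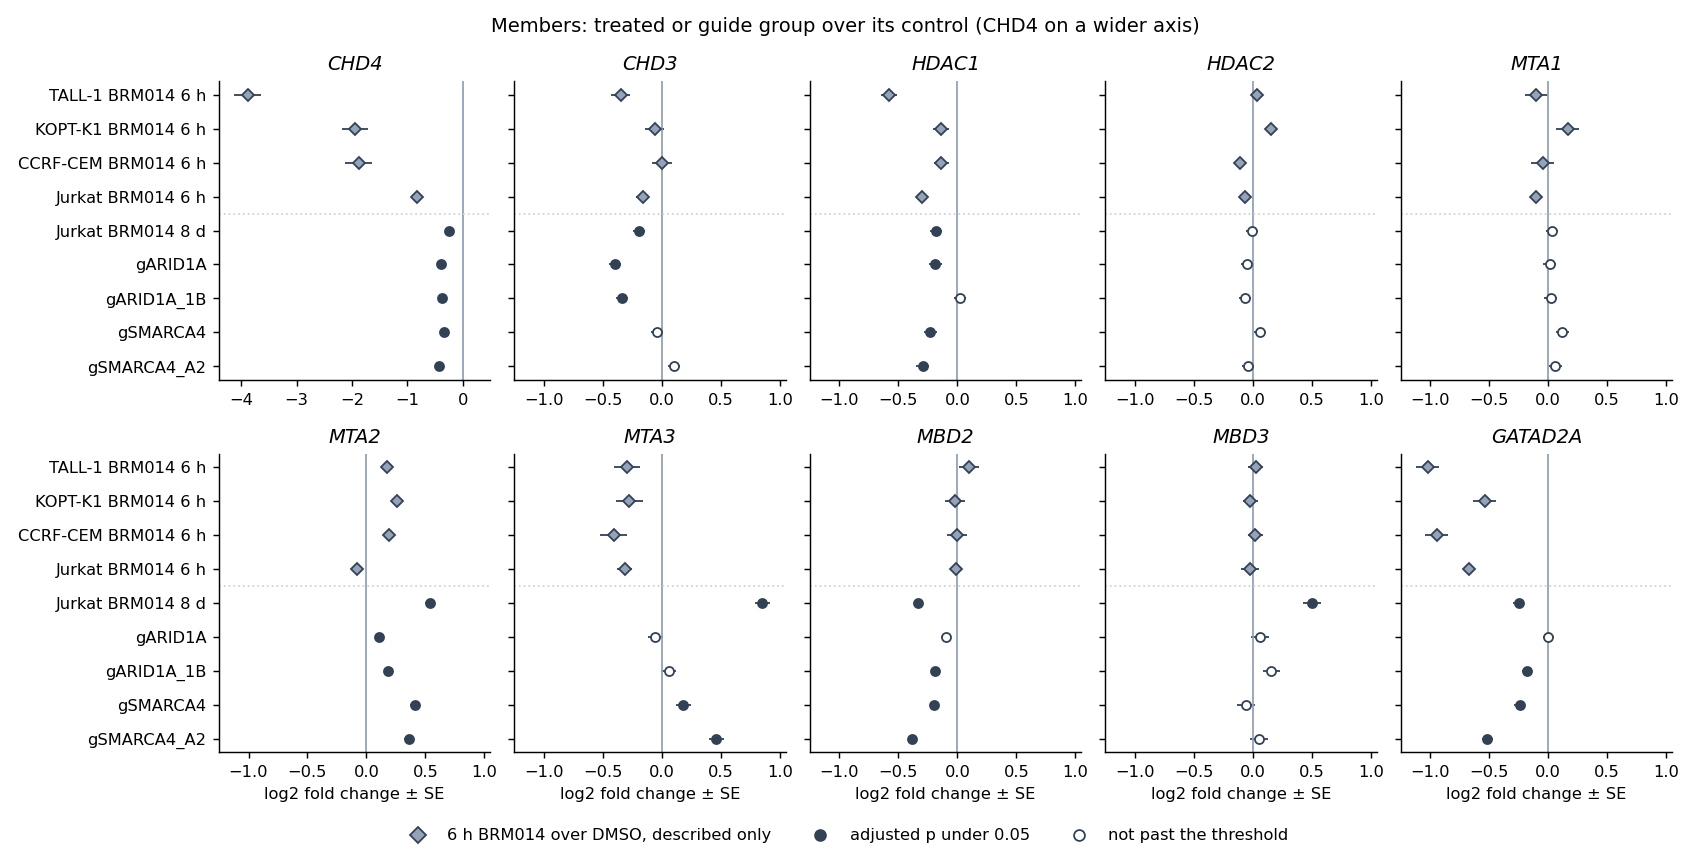
Log2 fold change with its SE for each member in 9 comparisons, treated or guide group over its control. Diamonds mark the 6 h comparisons that are described only, filled circles an adjusted p under 0.05 and open circles values that miss it. CHD4 has a wider axis, and GATAD2A is left of 0 in all 4 diamonds, while MTA3 changes side between Jurkat at 6 h (-0.32) and 8 d (0.85).

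After 8 d of BRM014 in Jurkat, CHD4 and GATAD2A were lower than in DMSO, with log2 fold changes nearer 0 than at 6 h, a difference that was not tested, and MTA2, MTA3 and MBD3 were higher. By limma over 17936 genes with Benjamini-Hochberg adjustment, 3 members rose and 5 fell, and 59.9% of all genes passed the same threshold, 36.9% higher and 23% lower. CHD4 fell to 133.5, 139.8 and 135.1 TPM with BRM014, against 151.5, 161.8 and 171.3 TPM with DMSO (log2 fold change -0.24 ± 0.05, limma adjusted p = 0.00042). GATAD2A fell to 60.3, 59.6 and 62.1 TPM with BRM014, against 68.6, 72.1 and 76.5 TPM with DMSO (-0.25 ± 0.05, limma adjusted p = 7.3e-05). No BRM014 library reached the lowest DMSO library for either gene. CHD3 fell as well, to 121 ± 4.31 TPM against 139 ± 2.31 TPM (-0.19 ± 0.05, limma adjusted p = 0.003), while its 6 h DMSO libraries were at 110 ± 4.51 TPM. The share of CHD4 in the CHD3 and CHD4 TPM was 52.9% ± 0.76 with BRM014 and 53.7% ± 1.61 with DMSO. Its libraries overlapped, unlike at 6 h.

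MTA3 had 23.2, 25.0 and 24.8 TPM with 8 d of BRM014, against 13.7, 12.6 and 12.9 TPM with DMSO (0.85 ± 0.06, limma adjusted p = 2.3e-10). MTA2 had 256, 247 and 255 TPM with BRM014, against 169, 174 and 180 TPM with DMSO (0.54 ± 0.04, limma adjusted p = 5.3e-11). The MTA1, MTA2 and MTA3 sum was 354 ± 4.06 TPM with BRM014 and 263 ± 2.07 TPM with DMSO, with MTA1 itself at 77.0 ± 0.25 and 75.5 ± 6.74 TPM (0.03 ± 0.05, limma adjusted p = 0.64). MBD3, the MBD subunit that does not need methylated DNA, had 52.3, 48.4 and 51.0 TPM with BRM014, against 36.2, 36.3 and 33.8 TPM with DMSO (0.50 ± 0.07, limma adjusted p = 5.6e-06). The 8 d DMSO libraries lay below the 6 h DMSO libraries for this gene, which were at 53.0, 58.0 and 56.5 TPM, and the treated libraries at 8 d lay below the 6 h DMSO libraries too. MBD2, the subunit that binds methylated CpG, fell to 33.7 ± 0.77 TPM with BRM014, against 42.8 ± 1.64 TPM with DMSO (-0.34 ± 0.04, limma adjusted p = 9.7e-08). HDAC1 fell to 292 ± 3.19 TPM, against 332 ± 20.2 TPM (-0.18 ± 0.05, limma adjusted p = 0.0054), and HDAC2 was at 73.1 ± 2.73 and 73.6 ± 6.31 TPM (-0.01 ± 0.05, limma adjusted p = 0.92). All 8 called members kept their direction and call when libraries were rescaled by median ratio, which took the share of higher genes among all calls from 61.6% to 48.8%.

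**Figure D4:**
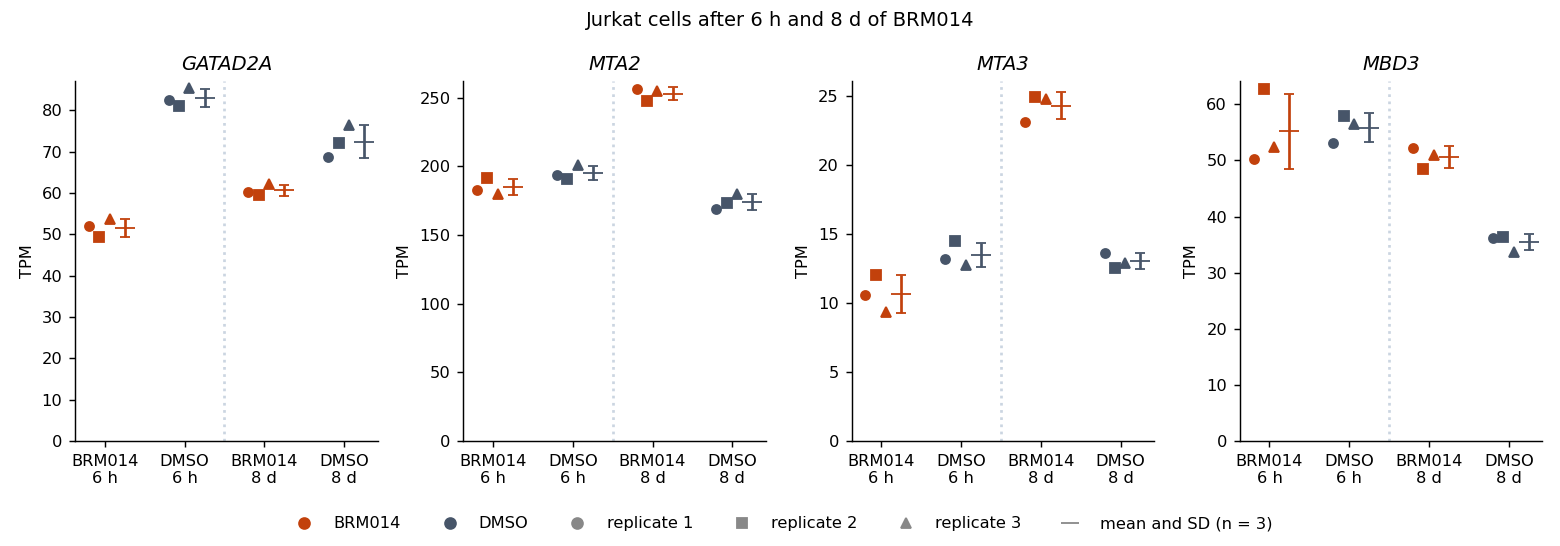
GATAD2A, MTA2, MTA3 and MBD3 in TPM for each Jurkat library after 6 h and 8 d of BRM014 or DMSO, with the mean and SD of each group of 3. GATAD2A lies below DMSO at both times, and MTA3 lies at 9.35 to 12.1 TPM with BRM014 at 6 h and at 23.2 to 25.0 TPM at 8 d, under and over its DMSO libraries.

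CHD4 fell in all 4 BAF guide groups of Jurkat. It had 139, 145 and 145 TPM in gARID1A, 147, 146.5 and 139 TPM in gARID1A_1B, 150.4, 150.3 and 145 TPM in gSMARCA4 and 138, 143 and 135 TPM in gSMARCA4_A2, against 191, 187 and 185 TPM in gAAVS1. No guide library overlapped the gAAVS1 libraries. The log2 fold changes were -0.39 ± 0.05 in gARID1A (limma adjusted p = 1.2e-05), -0.38 ± 0.05 in gARID1A_1B (5.9e-06), -0.34 ± 0.05 in gSMARCA4 (2.5e-05) and -0.43 ± 0.05 in gSMARCA4_A2 (3.6e-07), and all 4 share the gAAVS1 libraries. Against their single-target groups, the combined guides did not pass the threshold for CHD4, at 0.01 ± 0.05 for gARID1A_1B against gARID1A (limma adjusted p = 0.92) and -0.10 ± 0.05 for gSMARCA4_A2 against gSMARCA4 (limma adjusted p = 0.15). After median-ratio rescaling the second of these was -0.21 with an adjusted p of 0.0088.

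CHD3 fell to 119.6, 116 and 115 TPM in gARID1A (-0.40 ± 0.05, limma adjusted p = 8.4e-06) and to 131, 120.4 and 114 TPM in gARID1A_1B (-0.34 ± 0.05, limma adjusted p = 1.9e-05), against 161, 148 and 153 TPM in gAAVS1. It was at 154, 151 and 144 TPM in gSMARCA4 (-0.04 ± 0.05, limma adjusted p = 0.57) and at 170.0, 169 and 157.5 TPM in gSMARCA4_A2 (0.10 ± 0.05, limma adjusted p = 0.092, and -0.06 after median-ratio rescaling). Whether the ARID1A and SMARCA4 groups differ in CHD3 was not tested. CHD3 also differed between Jurkat control groups, at 110 ± 4.51 TPM in DMSO at 6 h, 139 ± 2.31 TPM in DMSO at 8 d and 154 ± 6.46 TPM in gAAVS1. The means of gARID1A (117 TPM) and gARID1A_1B (121.5 TPM) lay within the range of these control means. The CHD4 share of the CHD3 and CHD4 TPM was 55.1% ± 1.19 in gARID1A, 54.3% ± 1.12 in gARID1A_1B, 49.8% ± 0.43 in gSMARCA4 and 45.6% ± 0.73 in gSMARCA4_A2, against 54.9% ± 0.78 in gAAVS1.

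MTA2 rose in all 4 guide groups, though the gARID1A call was not stable, and its levels were highest in those with a SMARCA4 guide. It had 203, 220 and 220 TPM in gARID1A (0.11 ± 0.04, limma adjusted p = 0.04), 223, 230.5 and 222 TPM in gARID1A_1B (0.18 ± 0.04, 0.00046), 261, 266 and 264 TPM in gSMARCA4 (0.41 ± 0.04, 1.4e-08) and 246, 262 and 255 TPM in gSMARCA4_A2 (0.36 ± 0.04, 3.5e-08), against 197, 196 and 202 TPM in gAAVS1. Without gARID1A replicate 2 or replicate 3, or without gAAVS1 replicate 1 or replicate 2, the gARID1A call was lost, with adjusted p of 0.16, 0.15, 0.11 and 0.12. It was also lost with only the groups compared in the fit (0.11) and with plain moderation of the spread (0.051). MTA3 rose to 19.8, 18.9 and 19.2 TPM in gSMARCA4_A2 (0.46 ± 0.06, limma adjusted p = 2.2e-06) and to 15.0, 16.0 and 16.2 TPM in gSMARCA4 (0.18 ± 0.06, limma adjusted p = 0.027), against 13.9, 13.8 and 13.5 TPM in gAAVS1. The gSMARCA4 value missed the threshold after rescaling (adjusted p = 0.057) and without gAAVS1 replicate 2 or 3 (0.057 and 0.075) or gSMARCA4 replicate 2 or 3 (0.074 and 0.092). MTA1 passed in none of the 4 groups, with log2 fold changes of 0.01 to 0.12, but did in gSMARCA4 with only the groups compared in the fit (adjusted p = 0.044).

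GATAD2A fell in 3 of the 4 guide groups. It had 75.4, 86.1 and 84.1 TPM in gARID1A, which overlapped gAAVS1 at 81.5, 80.3 and 83.6 TPM (-0.001 ± 0.05, limma adjusted p = 1.0). It fell to 74.96, 71.2 and 70.2 TPM in gARID1A_1B (-0.18 ± 0.05, limma adjusted p = 0.0034), to 70.6, 69.2 and 67.0 TPM in gSMARCA4 (-0.24 ± 0.05, limma adjusted p = 0.00021) and to 56.9, 57.3 and 56.2 TPM in gSMARCA4_A2 (-0.52 ± 0.05, limma adjusted p = 3.5e-09). Both combined guides were lower than their single-target group, by -0.18 ± 0.05 for gARID1A_1B against gARID1A (limma adjusted p = 0.0077) and by -0.28 ± 0.05 for gSMARCA4_A2 against gSMARCA4 (9e-05). The first of these lost its call without gARID1A replicate 2 (-0.14, adjusted p = 0.058) and with only the groups compared in the fit (adjusted p = 0.061). Jurkat DMSO libraries had 81.2 to 85.3 TPM of GATAD2A at 6 h and 68.6 to 76.5 TPM at 8 d. The gARID1A_1B and gSMARCA4 libraries overlapped the 8 d DMSO libraries, and the gSMARCA4_A2 libraries lay below them.

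MBD2 fell in the same 3 groups, to 34.8 ± 1.08 TPM in gARID1A_1B (-0.19 ± 0.04, limma adjusted p = 0.00039), 34.6 ± 1.15 TPM in gSMARCA4 (-0.20 ± 0.04, 0.00021) and 30.3 ± 0.70 TPM in gSMARCA4_A2 (-0.38 ± 0.04, 1.5e-08), against 39.8 ± 0.24 TPM in gAAVS1. In gARID1A it was at 37.1 ± 0.12 TPM (-0.10 ± 0.04, limma adjusted p = 0.066). HDAC1 fell to 325 ± 19.7 TPM in gARID1A (-0.19 ± 0.05, limma adjusted p = 0.015), 315 ± 1.14 TPM in gSMARCA4 (-0.23 ± 0.05, 0.0015) and 301 ± 3.79 TPM in gSMARCA4_A2 (-0.29 ± 0.05, 5.9e-05), against 369.5 ± 2.41 TPM in gAAVS1. In gARID1A_1B it was at 375 ± 12.5 TPM (0.02 ± 0.05, limma adjusted p = 0.78), higher than in gARID1A (0.21 ± 0.05, limma adjusted p = 0.0075). The HDAC1 call in gARID1A was lost after rescaling (adjusted p = 0.11), with voom (0.051) and without gARID1A replicate 1 (0.094), and the difference between gARID1A_1B and gARID1A without that library had an adjusted p of 0.054. Jurkat DMSO libraries had 309.7 to 351.6 TPM of HDAC1 at 6 h and 308.8 to 344.4 TPM at 8 d. The gARID1A and gSMARCA4 libraries overlapped both of these control groups, and the gSMARCA4_A2 libraries lay below them. HDAC2 and MBD3 passed in none of the 4 guide groups on the deposited scale. MBD3 was above gAAVS1 in all gARID1A_1B libraries (0.16 ± 0.08, limma adjusted p = 0.1). It passed there after rescaling (0.19, adjusted p = 0.047), with voom (0.031), without mitochondrial genes (0.041) and with only the groups compared in the fit (0.031). HDAC2 passed in gSMARCA4_A2 after rescaling (-0.20, limma adjusted p = 0.0014).

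In all, 1 member rose and 3 fell in gARID1A, where 20.9% of all genes passed, 7.72% higher and 13.2% lower. In gARID1A_1B 1 rose and 4 fell, with 40% of all genes called, 17% higher and 23.1% lower. In gSMARCA4 2 rose and 4 fell, with 40.9% of all genes called, 25.1% higher and 15.8% lower. In gSMARCA4_A2 2 rose and 4 fell, with 62.1% of all genes called, 40.9% higher and 21.1% lower. The median log2 fold change of the 10 was -0.05, -0.02, -0.05 and 0.005 in these groups, beside -0.03, -0.03, 0.04 and 0.11 over all genes. In gARID1A_1B against gARID1A, 1 member was higher and 1 lower with 20.9% of genes called, 10.3% higher and 10.6% lower. In gSMARCA4_A2 against gSMARCA4 2 were higher (CHD3 and MTA3) and 2 lower (GATAD2A and MBD2) with 38.8% called, 26.5% higher and 12.3% lower. With only 10 genes, nothing is read from these shares beside those of all genes. After rescaling 1 member rose and 2 fell in gARID1A, and 2 rose and 4 fell in gARID1A_1B. On the same scale 1 rose and 4 fell in gSMARCA4, and 2 rose and 5 fell in gSMARCA4_A2. The CHD3 call between gSMARCA4_A2 and gSMARCA4 was lost after rescaling (0.03, adjusted p = 0.65), with voom (0.34), without gSMARCA4 replicate 2 or 3 (0.06 and 0.14) and without gSMARCA4_A2 replicate 1 or 2 (0.12 and 0.11). After rescaling 1 member was higher and 7 were lower in that comparison. Rescaling moved the median of all genes in gSMARCA4_A2 from 0.11 to -0.03, so changes there are also given on the rescaled values, at -0.59 for CHD4, -0.68 for GATAD2A, -0.54 for MBD2, -0.46 for HDAC1, 0.20 for MTA2 and 0.31 for MTA3, all past the threshold. It took the share of higher genes among all calls from 65.9% to 45.2% in gSMARCA4_A2, from 61.4% to 50.7% in gSMARCA4, from 37.0% to 50.5% in gARID1A and from 68.3% to 38.5% in gSMARCA4_A2 against gSMARCA4. Leaving out mitochondrial genes took it from 49.5% to 66.3% in gARID1A_1B against gARID1A.

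Without inhibitor, TALL-1 had more CHD3 than both other lines of the directional kit. The tests in this comparison of lines use the 6 h DMSO libraries, which also entered the CHD4 difference that chose the set, so CHD4 is given here as levels and differences with no test. CHD4 had 226, 243 and 230 TPM in TALL-1, 210.2, 219.5 and 317 TPM in CCRF-CEM and 288, 264 and 260.5 TPM in KOPT-K1. CCRF-CEM overlapped both other lines, and all TALL-1 libraries lay below all KOPT-K1 libraries. The CHD4 log2 fold changes were -0.07 ± 0.24 for TALL-1 against CCRF-CEM, -0.22 ± 0.24 for TALL-1 against KOPT-K1 and -0.15 ± 0.24 for CCRF-CEM against KOPT-K1. Without CCRF-CEM replicate 3 in both groups the log2 fold changes were 0.11 for TALL-1 against CCRF-CEM and -0.33 for CCRF-CEM against KOPT-K1. CHD3 had 182, 186 and 181 TPM in TALL-1, against 58.7, 57.1 and 65.9 TPM in CCRF-CEM (1.58 ± 0.08, limma adjusted p = 9.6e-11) and 44.4, 50.9 and 54.8 TPM in KOPT-K1 (1.86 ± 0.08, 1.3e-11). Among the lines of the directional kit, TALL-1 thus had the smallest CHD4 share of the CHD3 and CHD4 TPM in DMSO, at 56.0%, beside 80.1% in CCRF-CEM and 84.4% in KOPT-K1. The Jurkat control groups, from the other kit, averaged 61.9% in DMSO at 6 h, 53.7% in DMSO at 8 d and 54.9% in gAAVS1.

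TALL-1 also had the most MTA1, at 166, 166 and 173 TPM, against 113, 97.9 and 125.5 TPM in CCRF-CEM (0.59 ± 0.10, limma adjusted p = 6.1e-05) and 78.0, 73.0 and 76.0 TPM in KOPT-K1 (1.14 ± 0.10, 3.5e-08). MTA1 made up 43.9% ± 0.44 of the MTA1, MTA2 and MTA3 TPM there, beside 30.1% ± 1.98 in CCRF-CEM and 23.8% ± 0.98 in KOPT-K1. HDAC1 was higher in TALL-1, at 414 ± 24.7 TPM, than in CCRF-CEM at 329 ± 21.0 TPM (0.33 ± 0.07, limma adjusted p = 0.00042) and KOPT-K1 at 360 ± 12.6 TPM (0.20 ± 0.07, limma adjusted p = 0.016). The call against KOPT-K1 was lost without KOPT-K1 replicate 1 (adjusted p = 0.052) or TALL-1 replicate 3 (0.075). HDAC2 was lowest in CCRF-CEM, at 50.5 ± 1.84 TPM, against 74.4 ± 1.52 TPM in KOPT-K1 (-0.55 ± 0.04, limma adjusted p = 1.8e-08). GATAD2A was lower than in KOPT-K1 both in TALL-1 (-0.35 ± 0.10, limma adjusted p = 0.0059) and in CCRF-CEM (-0.29 ± 0.10, 0.022). The CCRF-CEM call was lost without CCRF-CEM replicate 1 (adjusted p = 0.080) or KOPT-K1 replicate 1 or 2 (0.080 and 0.058). Of the 9 members other than CHD4, 5 were higher and 1 was lower in TALL-1 against CCRF-CEM, where 67.6% of all genes were called, 32.6% higher and 35% lower. The MTA3 call there (0.34) was lost without CCRF-CEM replicate 1 or 2 (limma adjusted p = 0.075 and 0.059). It was also lost without TALL-1 replicate 2 or 3 (0.053 and 0.054). MBD3 gained a call without CCRF-CEM replicate 3 in both groups (-0.15, limma adjusted p = 0.012). In TALL-1 against KOPT-K1 4 were higher and 5 lower, with 70.5% of all genes called, 35.4% higher and 35.1% lower. In CCRF-CEM against KOPT-K1 2 were higher and 4 lower, with 62.5% called, 32.9% higher and 29.6% lower. The MBD2 call there (-0.22) was lost without CCRF-CEM replicate 1 or 2 (limma adjusted p = 0.10 and 0.13) or KOPT-K1 replicate 2 or 3 (0.083 and 0.076). It was also lost with only the groups compared in the fit (0.051). The CHD3 call was lost without KOPT-K1 replicate 1 (0.057), and HDAC1 gained a call after rescaling (0.032).

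**Figure D5:**
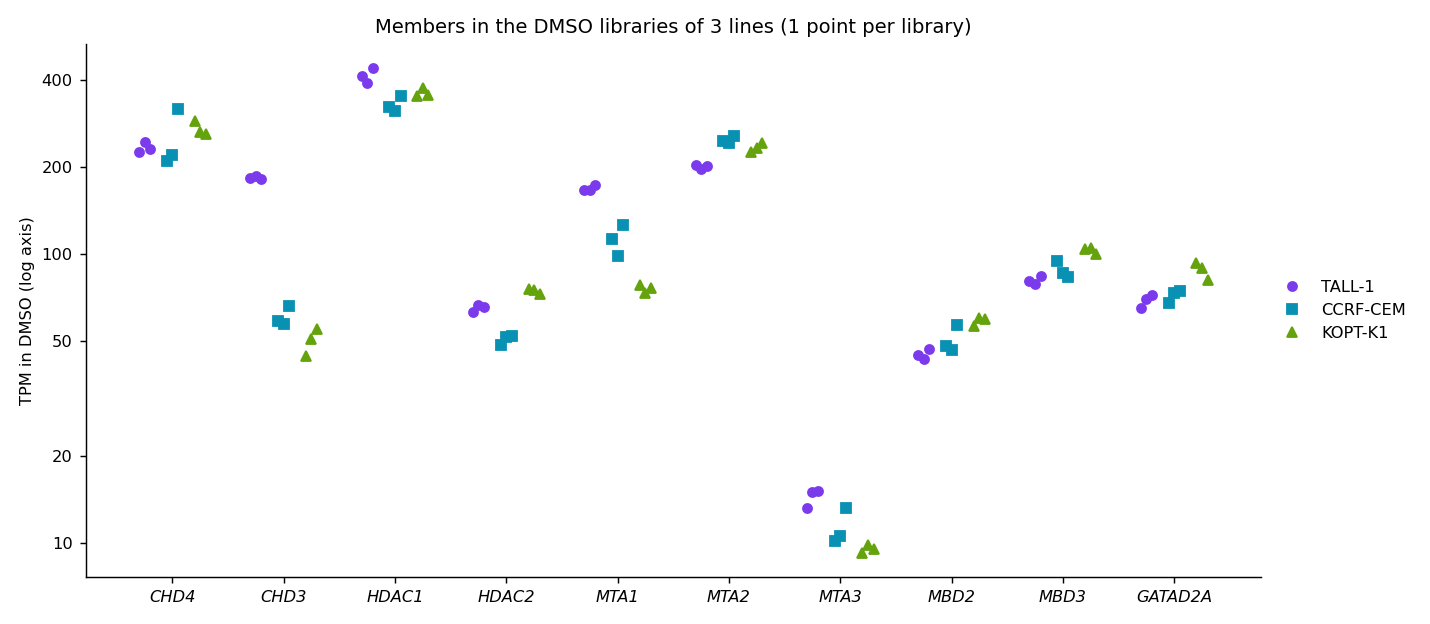
TPM on a log axis of each member in the DMSO libraries of TALL-1, CCRF-CEM and KOPT-K1, 1 point per library. CHD3 and MTA1 of TALL-1 stand above the other lines, at 181 to 186 TPM and 166 to 173 TPM, while CHD4 of CCRF-CEM spans 210.2 to 317 TPM.

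Of 5 other core NuRD genes, CHD5 stayed under the filter in both tables and the other 4 were tested. RBBP4, a histone chaperone shared by many complexes, rose after 8 d of BRM014 to 208 TPM, against 174 TPM with DMSO (0.26 ± 0.04, limma adjusted p = 3.9e-05), and in gSMARCA4 and gSMARCA4_A2 (0.14 ± 0.04 and 0.17 ± 0.04, limma adjusted p = 0.018 and 0.0022). After median-ratio rescaling RBBP4 missed the threshold in both guide groups (0.09 and 0.01, adjusted p = 0.059 and 0.83). It overlaps SYNC on the opposite strand. Its paralog RBBP7 fell in gSMARCA4_A2 to 136 TPM, against 154 TPM in gAAVS1 (-0.18 ± 0.03, limma adjusted p = 1.7e-05), and rose in gARID1A_1B to 170.0 TPM (0.14 ± 0.03, 0.00062). It overlaps TXLNG on the opposite strand. GATAD2B fell at 8 d to 14.0 TPM with BRM014, against 20.1 TPM with DMSO (-0.49 ± 0.07, limma adjusted p = 4.4e-06). CDK2AP1, a small NuRD subunit, fell in gARID1A_1B to 114 TPM, against 158 TPM in gAAVS1 (-0.46 ± 0.08, limma adjusted p = 4.6e-05), and was 44.2 TPM in TALL-1 against 208 TPM in KOPT-K1 in DMSO (-2.21 ± 0.15, 1.9e-09). Of these 4 genes, 1 rose and 2 fell at 8 d, 0 and 1 in gARID1A, 1 and 2 in gARID1A_1B, 1 and 0 in gSMARCA4 and 1 and 2 in gSMARCA4_A2. The shares of all genes called in those comparisons were 59.9, 20.9, 40, 40.9 and 62.1%, and nothing is read from counts of 4 genes. After rescaling 1 rose and 1 fell in gARID1A_1B, 0 rose and 1 fell in gSMARCA4, and 0 rose and 3 fell in gSMARCA4_A2.

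NuRD-associated factors were read from a list of 14, of which 11 passed the filter in Jurkat and in the other lines. BCL11B and IKZF1, zinc-finger factors of the T lineage that bind NuRD, moved apart in the guides. In gSMARCA4_A2 BCL11B fell to 37.0 TPM (-0.83 ± 0.06, limma adjusted p = 1.1e-10) and IKZF1 rose to 101 TPM (1.00 ± 0.09, limma adjusted p = 2.1e-09), against 66.7 and 49.9 TPM in gAAVS1. The same directions passed in gARID1A, gARID1A_1B and gSMARCA4, with log2 fold changes of -0.38, -0.81 and -0.73 for BCL11B and 0.73, 1.00 and 0.97 for IKZF1. At 8 d BCL11B had 24.3 TPM with BRM014 and 64.7 TPM with DMSO (-1.38 ± 0.06, limma adjusted p = 2.8e-14), and IKZF1 had 90.6 and 49.8 TPM (0.85 ± 0.09, limma adjusted p = 2.3e-08). At 6 h BCL11B was below DMSO in every library of the 4 lines, from -1.26 ± 0.08 in TALL-1 to -2.47 ± 0.08 in CCRF-CEM. IKZF1 overlapped in Jurkat at 6 h, at 53.2 to 75.67 TPM with BRM014 and 54.18 to 64.95 TPM with DMSO. Its BRM014 libraries all lay above DMSO in TALL-1, KOPT-K1 and CCRF-CEM. Of the 11 genes, 4 rose and 4 fell at 8 d, 1 and 4 in gARID1A, 1 and 3 in gARID1A_1B, 3 and 2 in gSMARCA4, and 5 and 3 in gSMARCA4_A2. Of all genes, 59.9, 20.9, 40, 40.9 and 62.1% were called in those comparisons. After rescaling 3 rose and 3 fell in gARID1A, 3 rose and 3 fell in gSMARCA4, and 4 rose and 5 fell in gSMARCA4_A2. KDM1A, the histone demethylase that CoREST shares with NuRD, fell in gARID1A_1B to 142 TPM, against 175 TPM in gAAVS1 (-0.29 ± 0.05, limma adjusted p = 2.1e-05). ZMYND8, a chromatin reader that recruits NuRD, rose in gSMARCA4_A2 to 52.3 TPM, against 35.5 TPM in gAAVS1 (0.55, limma adjusted p = 4.7e-09). BCL11A, the paralog of BCL11B, fell at 8 d to 5.89 TPM with BRM014, against 9.54 TPM with DMSO (-0.62, limma adjusted p = 5e-08). The third change by size was ZFPM1 in gARID1A (-0.27) and PWWP2B in gSMARCA4 (0.30).

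Genes of the other complexes that hold HDAC1 or HDAC2 gave 19 measured members of a list of 20. Of these, 12 rose and 2 fell at 8 d, 13 and 2 in gSMARCA4_A2, 6 and 2 in gSMARCA4, 0 and 5 in gARID1A and 0 and 6 in gARID1A_1B. Of all genes, 36.9% rose and 23% fell at 8 d, 40.9% and 21.1% in gSMARCA4_A2, 25.1% and 15.8% in gSMARCA4, 7.72% and 13.2% in gARID1A and 17% and 23.1% in gARID1A_1B. After median-ratio rescaling, which lowered the share of higher genes among all calls to 48.8% at 8 d and 45.2% in gSMARCA4_A2, 11 of the 19 rose and 2 fell at 8 d, and 9 rose and 4 fell in gSMARCA4_A2. In gARID1A 0 rose and 1 fell after rescaling, and in gARID1A_1B 1 rose and 5 fell. RCOR2, a CoREST scaffold, rose to 16.9 TPM with 8 d of BRM014, against 6.27 TPM with DMSO (1.32 ± 0.13, limma adjusted p = 2.3e-08), and to 14.2 TPM in gSMARCA4_A2, against 6.20 TPM in gAAVS1 (1.08 ± 0.13, limma adjusted p = 4.7e-07). In gARID1A_1B RCOR2 fell to 4.59 TPM (-0.37 ± 0.13, limma adjusted p = 0.032). ARID4B, a SIN3 subunit, rose by 0.53 ± 0.05 at 8 d and by 0.55 ± 0.05 in gSMARCA4_A2 (limma adjusted p = 2.5e-08 and 1.6e-08). PHF21A, a CoREST reader of histone H3, rose by 0.76 in gSMARCA4_A2, at 23.5 TPM against 13.4 TPM in gAAVS1 (limma adjusted p = 1.9e-09), and HMG20B rose by 0.48 at 8 d. SAP30, a SIN3 subunit, fell in gARID1A and gARID1A_1B (-0.21 and -0.35, limma adjusted p = 0.017 and 0.00011), as did PHF21A and SIN3A in gARID1A (-0.19 and -0.17) and RCOR1 in gARID1A_1B (-0.27). After rescaling SAP30 and PHF21A missed the threshold in gARID1A (adjusted p = 0.073 and 0.056). In gSMARCA4 the 3 largest were RCOR2 (0.63), RCOR1 (0.31) and ARID4B (0.30). The median log2 fold change of the 19 genes was 0.24 at 8 d, -0.11 in gARID1A, -0.04 in gARID1A_1B, 0.10 in gSMARCA4 and 0.27 in gSMARCA4_A2, beside 0.08, -0.03, -0.03, 0.04 and 0.11 over all genes. After rescaling it was 0.15 at 8 d and 0.11 in gSMARCA4_A2.

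Across the 45 libraries, each taken as log2(TPM + 1) minus the mean of its own line, the genes most like CHD4 among 10335 were PRXL2B (Pearson r = 0.97), TGFB1 (0.97), NOTCH1 (0.95), YWHAH (0.95) and GRK6 (0.95). These values are a description, since the libraries of a line share table, kit and controls and the 6 h BRM014 libraries enter them. NOTCH1, the receptor gene often mutated in T-ALL, had 11.0 TPM in TALL-1 with BRM014 and 150 TPM with DMSO. Among the other members, GATAD2A ranked 61 (r = 0.88) and HDAC1 388 (0.77), while MTA2 was at r = -0.33. At 8 d NOTCH1 was at 20.5 TPM with BRM014 and 16.1 TPM with DMSO, where CHD4 was at 136 and 161.5 TPM.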

How the data were processed

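The authors deposited TPM values, 1 table for 27 Jurkat libraries and 1 for 18 libraries of the other lines, each with the gene length in bases as a further deposited number of another kind. The submitters' processing notes name HISAT2 2.2.1, featureCounts 2.0.3, DESeq2 1.38.2 and hg38; the strand setting is not given in the sources used here. Multiplying each TPM by its gene's length and dividing by 1 constant for the library gave whole reads for 100% of values within 0.01. Genes with at least 1 TPM in 3 libraries of a table were kept (17936 in Jurkat, 16241 in the others) and fitted as log2(TPM + 1) with limma 3.58.1 in R 4.3.3, all groups of a table sharing 1 spread, with trended and robust moderation. A pseudocount of 1 understates changes of low genes. Calls are Benjamini-Hochberg adjusted p under 0.05 over all genes. Of 14 comparisons, 10 were tested and the 4 at 6 h were described. The fit was tested on simulated data: among 17335 Jurkat genes it recovered 92% of changes of 0.5 on the log2 scale and 30% of changes of 0.25. The simulation changed 200 genes, 50 at each size, in a single group, with a set spread between libraries. Far more genes were called in the real comparisons, so these rates need not hold for them.

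The members and lists were chosen with earlier results of these data known. All 10 members were named in each comparison of BRM014 with DMSO or of BAF guides with gAAVS1. In the other comparisons not every member is named, and the 5 other core genes are named only in part. From the associated factors and the other HDAC complexes the 3 largest called changes were eligible. Same-numbered replicates deviated together above 0.1 in every pair only for CCRF-CEM at 6 h, from the data and not from the labels. That comparison carries no test. Elsewhere not every pair passed 0.1, and the libraries were treated as unpaired. Each library still correlated best with its same-numbered one in Jurkat and KOPT-K1 at 6 h and in gARID1A_1B. The lowest r was 0.091, 0.042 and 0.018 there. CCRF-CEM at 6 h did not meet this second criterion. Alternatives were a replicate block, another pseudocount and filters, median-ratio rescaling, mitochondrial genes left out, plain moderation, only the groups compared, voom on recovered reads, and each library left out. No replicate pair was identical. By chi-square per degree of freedom of recovered reads, TALL-1 DMSO replicate 3 stood furthest from its group (47.95 and 47.22 against replicates 1 and 2). Replicates 1 and 2 gave 3.43 with each other, and CHD4 of replicate 3, at 230 TPM, lay between theirs. Upstream sequences come from RefSeq on GRCh38.p14.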

Additional observations from a re-analysis of the deposited data

Results flagged for a closer look

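MTA1 was flagged because its libraries moved in opposite directions in 2 lines at 6 h. All 3 BRM014 libraries lay below DMSO in TALL-1 (log2 fold change -0.10) and all 3 lay above DMSO in KOPT-K1 (0.17). The difference between the lines was not tested.

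MTA3 was flagged because its Jurkat libraries moved in opposite directions at the 2 times. All 3 BRM014 libraries lay below DMSO at 6 h (log2 fold change -0.32) and all 3 lay above DMSO at 8 d (0.85). The difference between the times was not tested.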

How the results depend on the processing

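Of the single-gene values under the alternatives, 1989 counted as the same, 37 untested values moved, 32 reversed, 29 gained a call and 43 lost one. The causes were not tested. In the tested comparisons, the same meant that direction and call were kept. For the untested 6 h values it meant a shift under the SD between libraries, and a change of sign counted as reversed only where the libraries did not overlap. The CHD4 log2 fold change in TALL-1 at 6 h was -4.04 with voom on recovered reads. Median-ratio rescaling and voom turned MTA1 at 8 d (-0.061 and -0.048), GATAD2A in gARID1A (0.038 and 0.032) and, in gSMARCA4_A2, CHD3 (-0.057 and -0.027), MTA1 (-0.100 and -0.072) and MBD3 (-0.104 and -0.078). Rescaling turned MBD3 in gSMARCA4_A2 against gSMARCA4 (-0.001), and both settings called 8 members there in place of 4. Leaving out mitochondrial genes turned MTA1 in gARID1A (-0.001) and HDAC2 in gARID1A_1B against gARID1A (0.023). In gARID1A_1B against gARID1A 1 member in place of 2 was called with only the groups compared and with the replicate block, since GATAD2A missed the threshold (adjusted p = 0.061 and 0.11). With the replicate block CHD3 and HDAC1 lost their 8 d calls (0.066 and 0.087). The numbers do not pair these libraries by design or by the check. The scaling of the 3 other gene lists was chosen after seeing the data. Without CCRF-CEM replicate 3 in both groups CHD4 was 0.11 in TALL-1 against CCRF-CEM. With 1 library left out at a time, ranges crossing 0 were -0.029 to 0.097 for MTA1 and -0.052 to 0.061 for HDAC2 at 8 d; -0.015 to 0.049 for MTA1 and -0.038 to 0.057 for GATAD2A in gARID1A; -0.022 to 0.067 for MTA1 and -0.005 to 0.039 for HDAC1 in gARID1A_1B; -0.012 to 0.038 for CHD4, -0.033 to 0.056 for MTA1 and -0.006 to 0.152 for MBD3 in gARID1A_1B against gARID1A, where 1 to 2 members were called; and -0.18 to 0.11 for CHD4 in TALL-1 against CCRF-CEM. In the simulated Jurkat data 30% of changes of 0.25 were recovered. Only 200 genes were changed there, so that rate need not hold for the real comparisons.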

Other observations

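Genes around CHD4 were looked at after its values were seen. Of 12 coding genes within 100 kb of CHD4, 11 passed the filter in TALL-1. At 6 h their median log2 fold change was 0.09 in TALL-1, 0.14 in KOPT-K1, 0.15 in CCRF-CEM and -0.04 in Jurkat, beside -3.88, -1.94, -1.88 and -0.82 for CHD4. The lowest neighbour in TALL-1 was NOP2 at -0.28 and the highest LPAR5 at 0.53, while in Jurkat LPAR5 was the lowest at -1.02. NCAPD2, a condensin subunit, was above DMSO in all libraries of the 4 lines. In TALL-1 it had 310 ± 18.3 TPM with BRM014 and 260 ± 16.4 TPM with DMSO. GAPDH was below DMSO in all libraries of the 4 lines. Its log2 fold change was -0.19 in TALL-1, -0.29 in KOPT-K1, -0.27 in CCRF-CEM and -0.19 in Jurkat. NOP2 was below DMSO in all libraries of TALL-1, CCRF-CEM and Jurkat, and overlapped in KOPT-K1.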
